A study of Mus musculus with 4 samples.

Results

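Pro-B and pre-B cells, the early B-lymphocyte precursors of the marrow, were taken from single-cell RNA libraries of the femoral epiphysis, the cartilage-rich end of the thigh bone. A cell was counted as a member when it had at least 500 genes, at least 1000 unique molecular identifiers (UMIs, each standing for 1 captured transcript) and at most 15% mitochondrial UMIs, and carried UMIs of at least 3 of the 6 genes Igll1, Vpreb1, Vpreb3, Dntt, Rag1 and Arpp21. It also had to hold less than 20% hemoglobin UMIs and less than 3% UMIs of 5 cartilage genes. These limits left 1253 members among 49055 kept cells, with 5, 25, 723 and 500 on days 7, 8, 10 and 12. Rag1 had no UMI in any barcode of the 4 libraries, so the members were in practice chosen by 5 genes.

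The 4 groups were wild-type mice at postnatal days 7, 8, 10 and 12, with 1 library per day, no treatment and no engineered allele named in the labels. Each library was made on a MobiDrop MobiNova-100 droplet instrument with a kit that reads the 3' end of transcripts. The number of animals in a library, their strain and their sex are not stated in the labels, and the digestion protocol in the labels names bowel tumour tissue, so the steps used on the epiphysis are uncertain. The protocol also includes a step to remove red blood cells. With 1 library per day there was no replicate check and no test. The intervals below are exact 95% intervals that cover counting error only, and in such libraries fewer cells of a type and less RNA per cell change a summed level in ways that cannot be told apart.

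B lymphocytes arise from lymphoid progenitors that commit to the lineage under the transcription factors Ebf1 and Pax5 and grow in response to interleukin 7. In pro-B cells the Rag recombinase joins the segments of the immunoglobulin heavy chain, and terminal transferase, the product of Dntt, adds untemplated bases at the joins. A successful heavy chain pairs with the surrogate light chain, made of the Igll1 and Vpreb products, to form the pre-B receptor. Signals from this receptor drive large pre-B cells to divide before they rest as small pre-B cells and rearrange a light chain gene.

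The surrogate light chain genes Igll1 and Vpreb1 were in the rule, and Vpreb2, the near copy of Vpreb1, was not. Their upstream sequences are shown because the results turn on these genes. Each line gives the 250 bases before the annotated start from RefSeq (GRCm38.p6, an older build than the GRCm39 of the count files), in the direction of transcription. Capitals mark CCCNNGGG, the core of the sequence that EBF1 recognises, and CAGGTG or its reverse complement, an E-box that E2A proteins can bind. The windows lie at chr16:16863986-16864235 (minus strand), chr16:16869256-16869505 (minus strand) and chr16:17980315-17980564 (plus strand).
Igll1: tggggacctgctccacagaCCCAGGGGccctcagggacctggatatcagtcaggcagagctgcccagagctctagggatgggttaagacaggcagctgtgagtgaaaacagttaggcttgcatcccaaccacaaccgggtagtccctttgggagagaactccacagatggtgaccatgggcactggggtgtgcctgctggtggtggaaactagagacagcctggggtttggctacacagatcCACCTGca
Vpreb1: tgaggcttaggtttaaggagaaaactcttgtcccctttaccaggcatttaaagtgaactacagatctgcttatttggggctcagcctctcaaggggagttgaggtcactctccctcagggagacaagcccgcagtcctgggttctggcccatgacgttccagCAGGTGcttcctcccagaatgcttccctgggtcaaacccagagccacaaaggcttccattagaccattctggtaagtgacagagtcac
Vpreb2: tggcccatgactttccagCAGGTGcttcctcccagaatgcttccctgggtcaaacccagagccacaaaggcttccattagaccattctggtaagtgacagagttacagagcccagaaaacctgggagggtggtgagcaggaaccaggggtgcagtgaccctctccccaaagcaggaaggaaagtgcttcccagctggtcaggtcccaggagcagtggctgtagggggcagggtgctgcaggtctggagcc
The EBF1 core was in the Igll1 window alone of these 3, and the E-box in all 3. The same window of Vpreb3, a rule gene whose sequence is not shown, held neither. Searched on both strands in 32851 promoter windows of the same length, the EBF1 core was present in 11.8% and the E-box in 17.2%, so such matches are common. The Vpreb1 and Vpreb2 windows shared an identical run of 91 bases, and the 2 genes are near copies, so UMIs could be split between them and their separate levels are uncertain.

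The members differed between libraries in depth and in RNA of other cell types. Their median was 1823, 3415, 9530 and 7140 UMIs on days 7, 8, 10 and 12. Barcodes shared between kept cells of different libraries numbered 62 to 240 per pair, and 2 barcodes were shared by members of days 10 and 12. Col1a1, a bone and fibroblast collagen, had a median of 52 UMIs per member on day 10 and 34 on day 12, and 1 member of day 10 held 18321. On day 12 84 of 500 members and on day 10 225 of 723 held a raised share of RNA from other lineages, defined as at least 2% from hemoglobin genes, cartilage genes or the stromal list, 0.5% from the neutrophil list, or 0.2% from the macrophage or endothelial list. Doublets were not removed, and the counts of genes in the members between days, by Dntt, by division and against later B cells were repeated without these cells. Below, without RNA of other lineages means without these cells. The remaining members still held some such RNA under those limits.

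Members were far more frequent in the later libraries. They made up 0.0442% of kept cells on day 7 (interval 0.0144 to 0.103), 0.218% on day 8 (0.141 to 0.322), 7.21% on day 10 (6.71 to 7.73) and 3.08% on day 12 (2.82 to 3.35). The day-10 and day-12 intervals did not overlap each other or those of the earlier days, and day 10 had the highest share. Among kept cells with a UMI of Ptprc, the CD45 surface protein of blood cells, and under the same hemoglobin and cartilage limits, the shares were 0.709%, 1.66%, 18.5% and 5.69%, so the order of the days was the same within blood cells. Members without a raised share of RNA from other lineages were 2.56% of kept cells on day 12 and 4.97% on day 10.

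**Figure D1:**
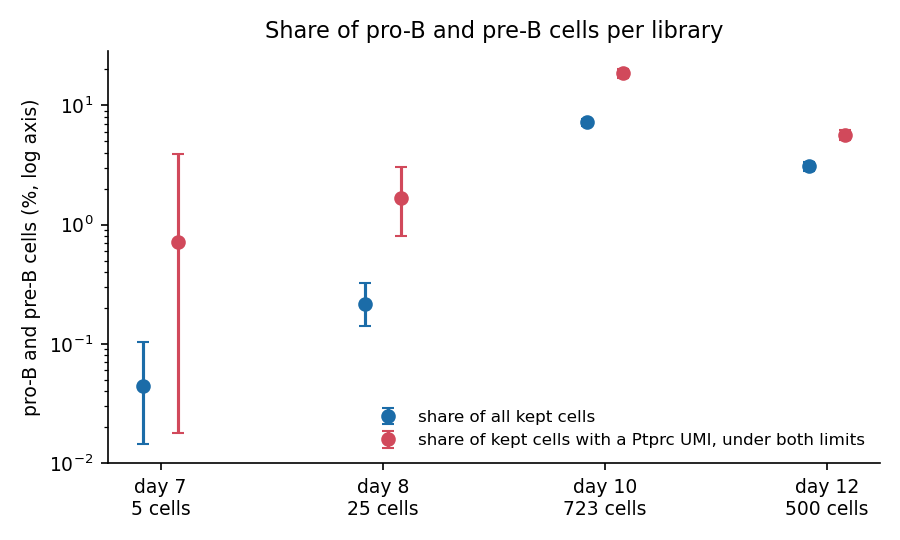
Share of pro-B and pre-B cells in each library on a log axis, with exact 95% binomial intervals. Blue points are shares of all kept cells and red points shares of kept cells with a Ptprc UMI under both limits; both are highest on day 10, at 7.21% and 18.5%.

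B cells past these stages showed another order. Later B cells were defined as cells under the same limits with fewer than 3 of the rule genes, UMIs of at least 2 of Ighd, Ms4a1, Fcmr, H2-Aa and Cd22, and a UMI of Cd79a or Cd79b. They numbered 1, 6, 139 and 362 on days 7, 8, 10 and 12. There were 1.38 members per later B cell on day 12 and 5.2 on day 10. The median later B cell held 3234.5 UMIs on day 12 and 7621 on day 10, and the part of this depth gap in the count of later B cells was not tested. This class also held RNA of plasmacytoid dendritic cells, with levels given in its comparison with the members.

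The rule has a threshold, and the cells on either side of it differed. On day 12 149 cells under the limits had exactly 3 rule genes and 186 had 2, and on day 10 there were 206 and 536. Cd79a or Cd79b, the signalling chains of the B-cell receptors, which the rule did not use, had a UMI in 91.3% of the 3-gene cells and 55.9% of the 2-gene cells on day 12, and in 77.2% and 34.5% on day 10. Of the cells with 5 rule genes, 98.7% on day 12 and 99.4% on day 10 had such a UMI. All 5 detectable rule genes were found together in 238 members on day 12 and 350 on day 10, and the next largest group carried Igll1, Vpreb1 and Vpreb3 alone, with 134 and 148 members.

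Levels are given as CPM, the UMIs of a gene per 1000000 of the members' summed UMIs. Igll1, which encodes the lambda5 chain of the surrogate light chain, had 3302, 1249, 1510.5 and 1506 CPM on days 7, 8, 10 and 12. Vpreb1, its partner chain, had 2096, 1249, 1024 and 1072 CPM. Vpreb3, an endoplasmic reticulum protein of early B cells, had 2673, 1486, 1375 and 1273 CPM. These 3 genes chose the members, so their high levels are a description, and between days 10 and 12 they differed by less than the 1.5-fold used here to call a gene higher or lower. Arpp21, a cAMP-regulated phosphoprotein and also a rule gene, had 209.6, 194, 258 and 219 CPM, with a day-12 interval (207 to 232) below that of day 10 (249 to 268). This difference was under 1.5-fold, and the level of Arpp21 in members is likewise a description.

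Dntt, the terminal transferase gene, was higher in the later libraries than on day 8. It had 52.4, 109.7, 477 and 556 CPM on days 7, 8, 10 and 12, from 1, 13, 5051 and 2925 UMIs. The day-8 interval (58.4 to 188) lay below those of day 10 (464 to 490.3) and day 12 (536 to 577), while the single UMI of day 7 allowed up to 292 CPM. With every member thinned to 1000 UMIs, Dntt was detected in 20% of members on day 8, 32.6% on day 10 and 40.8% on day 12, and in none of the 5 members of day 7. The day-8 value rests on 25 cells, and its thinned interval (6.83 to 40.7) overlapped the later ones. Dntt is a rule gene, so its level in members depends on the selection and is a description.

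Rule genes also had UMIs in cells of other types. Members were chosen for these genes, so their own share is a description. At 1000 UMIs per cell, Igll1 was detected in 72.8% of members on day 12 and 71.4% on day 10, against 1.3% and 2.51% of cells with at least 20% hemoglobin UMIs, and 0.706% and 1.16% of cells with at least 3% cartilage UMIs. The median depths of the erythroid-rich cells were 3724 UMIs on day 12 and 6800 on day 10, and of the cartilage-rich cells 10225 and 18378. At full depth, at least 3 rule genes were found in 0.502% of the erythroid-rich cells on day 12 and in 1.88% on day 10, beside 4.26% and 9.91% of the cells under both limits.

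Genes that the rule did not use also marked the members as B lineage, though each was measured in the cells the rule had chosen. Ebf1, the factor that sets up the B-cell programme, had 4507, 3672, 7472 and 5359.5 CPM on days 7, 8, 10 and 12, and Pax5, which maintains it, had 681, 650.0, 675 and 749 CPM. Ighm, the mu heavy chain, had 943, 962, 1296 and 1239 CPM, and Cd79a had 838, 489.6, 640.2 and 692 CPM. In all other kept cells Pax5 stood at 0.56, 1.06, 25.6 and 22.0 CPM and Cd79a at 0.467, 0.951, 26.7 and 23.5 CPM on days 7, 8, 10 and 12. Ebf1 was also found outside the members, at 155, 259.6, 794 and 455 CPM in those cells, and had a UMI in 31.9% of the day-7 and 78.3% of the day-10 cells without a rule gene. All 4 genes had UMIs in the members of every library.

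Cytokine and recombination genes followed. Il7r, the interleukin 7 receptor chain, had 52.4, 270.1, 230.1 and 190.0 CPM on days 7, 8, 10 and 12, with 1 UMI on day 7. Rag2, the partner of Rag1 in the recombinase, had 314, 16.9, 92.6 and 58.4 CPM from 6, 2, 981 and 307 UMIs. Its day-8 interval (2.04 to 61.0) lay below that of day 10 (86.9 to 98.6) but held the day-12 level. Day 12 lay below day 10 by 1.5-fold (log2 ratio -0.66). Kit, the stem cell factor receptor found on pro-B cells, had 0, 42.2, 31.2 and 35.4 CPM, and Flt3, a receptor of lymphoid progenitors, had 0, 16.9, 23.5 and 30.8 CPM.

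**Figure D2:**
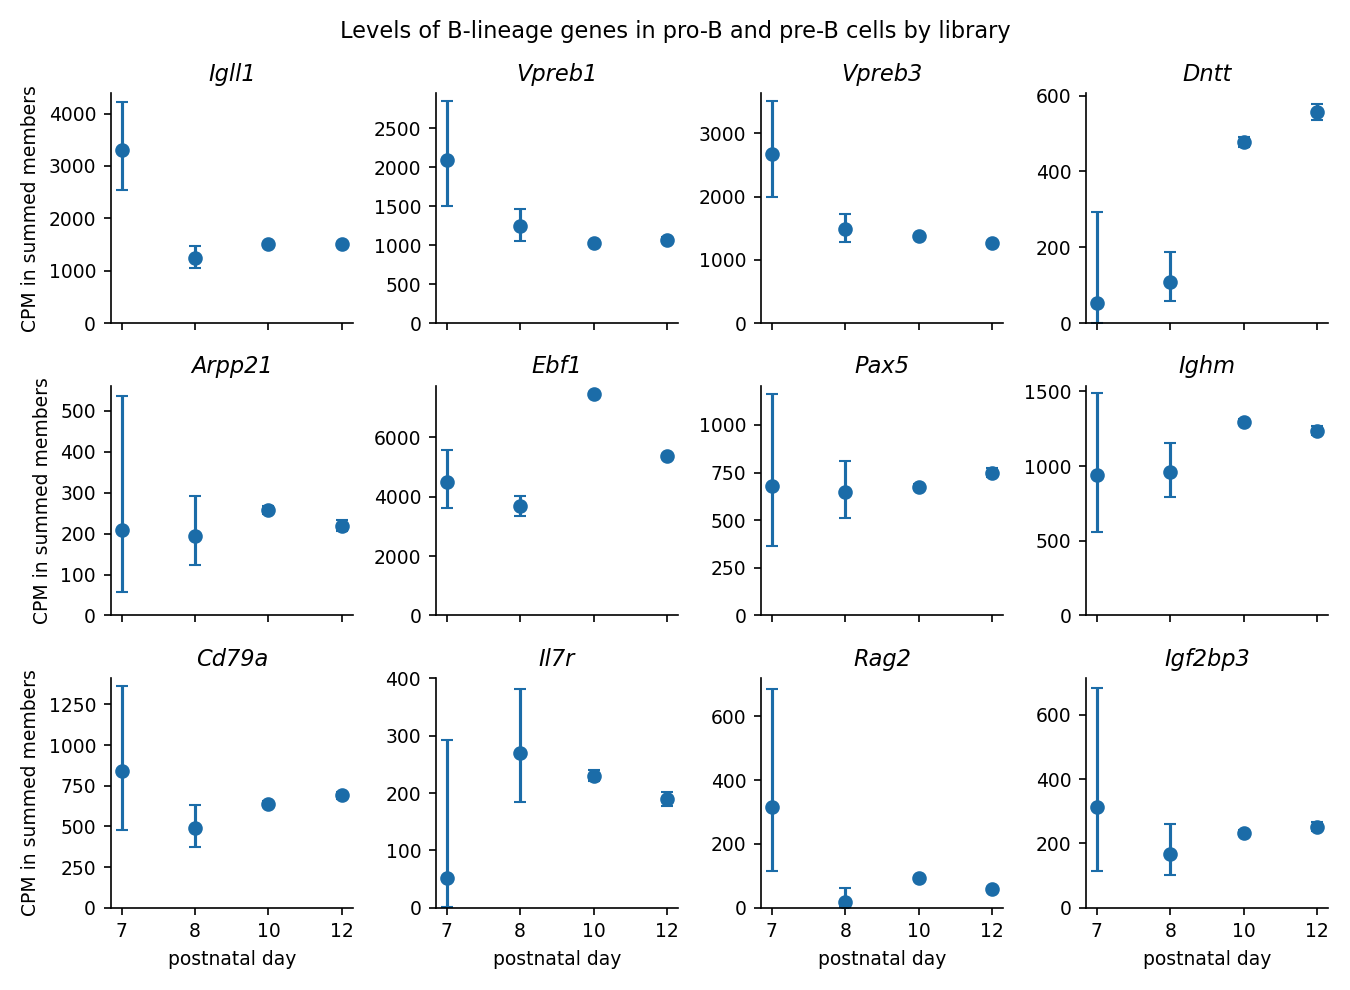
CPM of 12 B-lineage genes in the summed members of each library, with exact 95% Poisson intervals; each panel starts at 0. Dntt stands at 110 CPM on day 8 and 556 on day 12, and the day-7 intervals are wide because they rest on 5 cells.

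Ranked by the smaller of the day-10 and day-12 folds over all other kept cells, the leading 20 genes held 5 of the rule genes and 15 others. The rule chose these cells, so the ranking is a description. Among the others were Vpreb2, Rag2, Pax5 and Cd79a, and Ighg2b, an immunoglobulin heavy chain constant gene, which had 13.3 CPM in members against 0.0434 in other cells on day 12, and 14.1 against 0.0839 on day 10. Bfsp2, a filament protein best known from the eye lens, had 201.6 CPM in members against 1.48 in other cells on day 12, and 202 against 2.57 on day 10. Crhbp, a binding protein of corticotropin-releasing hormone, Drc7, Robo3, Myl10, Rnase12, Sit1, Tmprss3, Phldb3 and Ighv14-2 made up the rest.

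Members with a Dntt UMI were set against those without one, within each library, to look for the step between pro-B and pre-B cells. There were 322 Dntt-positive and 178 Dntt-negative members on day 12, and 484 and 239 on day 10. Dntt-positive cells carried more Arpp21, Erg, Rag2, Lef1 and Blnk, and Dntt-negative cells more Ikzf3, Nrgn, Cd24a, Blk and Cd22. Arpp21, Igll1, Vpreb1 and Vpreb3 are rule genes, as is Dntt, so their ratios in this split depend on the selection and are a description. A gene was called when both libraries showed at least 1.5-fold in the same direction. By this rule 528 of 11027 genes (4.79%) were higher and 527 (4.78%) lower in Dntt-positive cells. A missing Dntt UMI can also be a missed one, and the median depths were 6439 UMIs in Dntt-positive and 8289 in Dntt-negative members on day 12, and 9854 and 7972 on day 10.

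Of 10 genes listed for the pro-B stage, 4 were higher in Dntt-positive cells and none lower, with medians of 0.40 on day 12 and 0.45 on day 10 beside 0.01 and -0.02 over all genes. Erg, an Ets-family factor of stem cells and B precursors, had 380.1 CPM in Dntt-positive against 87.2 in Dntt-negative cells on day 12, and 386 against 112 on day 10. Lef1, a factor of the Wnt pathway active in pro-B cells, had 993 CPM in Dntt-positive against 444 in Dntt-negative cells on day 12, and 1047 against 415 on day 10. Both groups thus expressed Lef1, at levels that differed alike in the 2 libraries. Kit (log2 ratios 1.79 and 0.90 on days 12 and 10) and Flt3 (1.81 and 1.60) were the other pair, and both came from few UMIs.

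Genes of the pre-B receptor and its signalling split. Of 13, 4 were higher and 1 lower in Dntt-positive cells. Blnk, the adaptor that passes the receptor signal on, had 754 CPM in Dntt-positive against 305 in Dntt-negative cells on day 12, and 763 against 282 on day 10. Vpreb2, Cd79a and Bank1, a scaffold protein of B-cell receptor signalling, were also higher, with day-12 log2 ratios of 0.86, 0.66 and 1.41. Blk, a Src-family kinase of B cells, went the other way with 20.4 CPM in Dntt-positive against 80.8 in Dntt-negative cells on day 12, and 31.5 against 78.1 on day 10.

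Of 21 B-lineage transcription factors, Ebf1, Erg, Foxo1 and Lef1 were higher in Dntt-positive cells and Ikzf3 was lower. Ikzf3 (Aiolos), a zinc-finger factor that comes on in pre-B cells, had 13.9 CPM in Dntt-positive against 178 in Dntt-negative cells on day 12, and 18.1 against 113 on day 10. Foxo1, which turns on the Rag genes and Il7r, had 474 CPM in Dntt-positive against 207 in Dntt-negative cells on day 12, and 534 against 253 on day 10. Rag2 lay in the same direction (log2 ratios 2.08 and 1.87 on days 12 and 10), as did Xrcc4, a factor of DNA end joining (0.89 and 0.72). Polm, a DNA polymerase related to Dntt, was lower in Dntt-positive cells, at 5.58 against 15.8 CPM on day 12 and 3.85 against 19.0 on day 10.

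The lists of later stages did not go one way as a whole. Of 8 large pre-B genes 1 was higher and 1 lower in Dntt-positive cells, of 8 small pre-B genes 2 and 2, and of 13 immature and mature B genes 1 and 3. The medians of these lists were 0.15, 0.05 and -0.46 on day 12, and -0.02, 0.38 and 0.43 on day 10. Nrgn, neurogranin, a calmodulin-binding protein that the large pre-B list held, had 6.2 CPM in Dntt-positive against 51.7 in Dntt-negative cells on day 12, and 4.56 against 42.3 on day 10. Cd24a, the heat stable antigen used to stage B precursors, had 902 CPM in Dntt-positive against 2200.3 in Dntt-negative cells on day 12, and 1044 against 1784 on day 10. Il2ra (CD25), a marker of small pre-B cells, had 2 UMIs in Dntt-positive and 22 in Dntt-negative cells on day 12, and 20 and 32 on day 10, when Dntt-positive cells held more UMIs in all (log2 ratios of CPM -3.61 and -1.63). Cd22 and Ms4a1, surface proteins of later B cells, were lower in Dntt-positive cells, with day-12 log2 ratios of -2.50 and -2.48.

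Outside the lists, the genes with the largest ratios in Dntt-positive cells were Mmrn1, the secreted multimerin 1, Ighv14-2, Rgs8, Ankrd33b, Smtnl2, Mirt1, Tnfsf10 (TRAIL), Cracdl, Pcp4l1 and Gbp2. Mmrn1 had 71.6 CPM in Dntt-positive against 6.4 in Dntt-negative cells on day 12, and 100.0 against 6.72 on day 10. At the other end stood Klhl32, Sfrp2, Myl4, Tox, Btla, Vcam1, Fam189a1, Hdac9, Adamts9 and Pappa. Myl4, an embryonic myosin light chain, had 38.1 CPM in Dntt-positive against 194 in Dntt-negative cells on day 12, and 32.4 against 148 on day 10, and Hdac9, a histone deacetylase, had 104 CPM in Dntt-positive against 459.7 in Dntt-negative cells on day 12, and 84.5 against 308 on day 10. Btla, an inhibitory receptor of lymphocytes, stood at 4.96 against 25.6 CPM on day 12 and 5.7 against 24.9 on day 10.

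RNA of other lineages moved with this split: 5 of 8 stromal genes tested were lower in Dntt-positive cells, with medians of -2.05 on day 12 and -1.32 on day 10. Without the cells holding such RNA, 643 genes were higher and 304 lower in Dntt-positive cells, and 150 of the 304 were among the 527. Arpp21, Erg, Lef1, Rag2, Blnk, Ikzf3, Nrgn, Cd24a and Blk were still called in the same direction. Among members not dividing, the differences of Rag2, Foxo1, Kit, Cd79a, Blk and Cd24a were no longer called, and Nrgn, Il2ra, Cd22, Flt3, Polm, Btla and Myl4 had too few UMIs. Without RNA of other lineages, Vcam1, an adhesion molecule of stroma, had ratios of opposite sign in the 2 libraries, and Igll1 and Vpreb3 were just short of 1.5-fold on day 12.

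**Figure D3:**
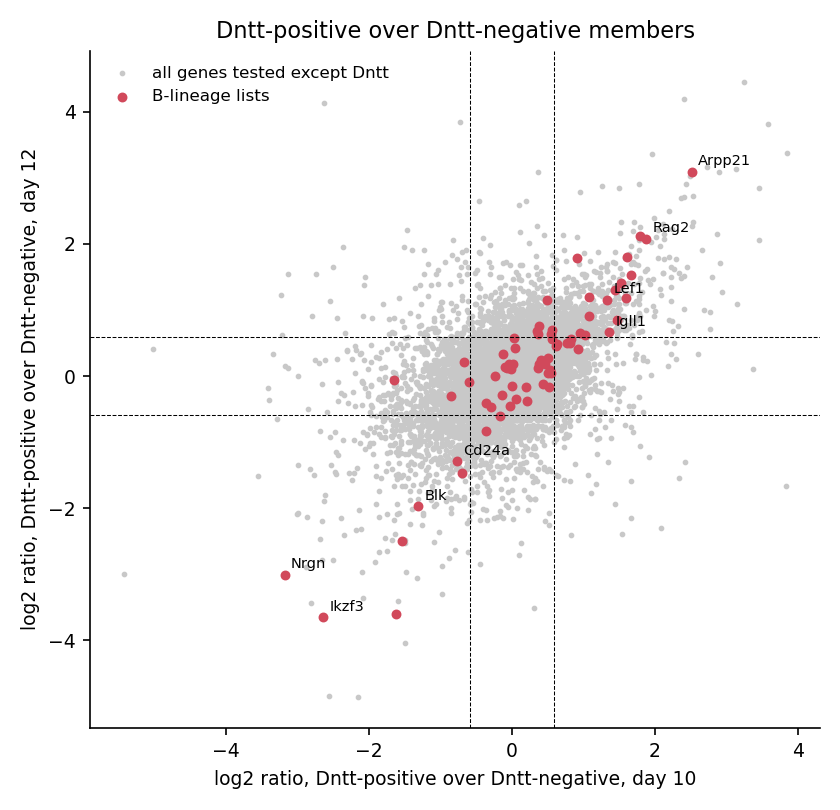
Log2 ratio of Dntt-positive over Dntt-negative members on day 10 (horizontal) and day 12 (vertical) for each gene with at least 20 UMIs in both libraries, Dntt itself left out. Red points are genes of the B-lineage lists, rule genes such as Arpp21 among them, and dashed lines mark 1.5-fold. Arpp21, Rag2 and Lef1 lie at the upper right, and Ikzf3 and Nrgn at the lower left.

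Members that carried UMIs of at least 5 of 18 cell division genes were called dividing. They made up 40%, 60%, 50.2% and 60.4% of members on days 7, 8, 10 and 12, with intervals of 46.5 to 53.9 on day 10 and 56.0 to 64.7 on day 12. On day 12 10 members lay 1 gene below this limit and 13 at it, and on day 10 58 and 30. With cells thinned to 1000 UMIs, a division gene was seen in 68.2% of members on day 12 (63.9 to 72.3) and 60.7% on day 10 (57.1 to 64.3), intervals that overlapped narrowly. At least 3 of them were seen in 37.8% (33.5 to 42.2) and 28.1% (24.8 to 31.5), intervals that did not overlap.

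Division was also counted in the later B cells, in which 18.8% were dividing on day 12 and 34.5% on day 10, and at 1000 UMIs a division gene was seen in 39.0% (33.9 to 44.2) and 47.5% (39.0 to 56.1). The members' thinned shares lay above these in both libraries, with intervals that did not overlap. Dividing cells made up 180 of 322 Dntt-positive and 122 of 178 Dntt-negative members on day 12, and 234 of 484 and 129 of 239 on day 10.

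Dividing members were compared with the others in each library. The division genes chose the group, and all 18 were higher, as were all 16 DNA replication genes, with medians of 2.14 on day 12 and 1.62 on day 10. Igll1 and Vpreb1, which are rule genes, and Vpreb2, Rag2 and the factors Ebf1, Erg, Foxo1 and Lef1 were lower as a share of the RNA of dividing cells. Over all genes, 1102 of 11027 (9.99%) were higher and 1593 (14.4%) lower. The scaling bears on this split: all-gene medians were -0.21 on day 12 and -0.09 on day 10, and with TMM factors they were 0.07 and 0.09, with 1666 genes higher and 925 lower. Depth moved with the groups, at a median of 11589 UMIs in dividing and 3847 in other members on day 12, and 16674 and 6889.5 on day 10.

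All 5 detectable rule genes and 7 of the 13 pre-B receptor and signalling genes were lower in dividing members, and none was higher. The rule genes, Igll1 and Vpreb1 among them, chose the members, and dividing members were deeper. Their levels in this split therefore depend on the selection and are a description. Vpreb1 had 822 CPM in dividing against 2149 in other members on day 12, and 692 against 2013 on day 10. Igll1 had 1371 CPM in dividing against 2086 in other members on day 12, and 1164 against 2541 on day 10, a difference that was under 1.5-fold on day 12 with TMM factors. Lyn and Syk, kinases of the receptor, and Pik3ap1, an adaptor for PI3 kinase, had day-12 log2 ratios of -1.06, -0.95 and -1.20. The ratios of Lyn, Syk and Pik3ap1 lay well below the all-gene medians in both libraries.

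Of 21 B-lineage factors, 8 were lower in dividing members and none higher. Ebf1 had 4578 CPM in dividing against 8718 in other members on day 12, and 5849 against 12294 on day 10. Foxo1 had 283 CPM in dividing against 751 in other members on day 12, and 347 against 714 on day 10. Bcl6, a transcriptional repressor active in pre-B cells, and Bach2, Id3 and Spib were also lower, but these 4 were no longer called with TMM factors. Of 8 tested small pre-B genes 5 were lower, among them Btg1 and Btg2, brakes on proliferation, with day-12 log2 ratios of -1.01 and -1.69.

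Fewer lineage genes were higher in dividing members. Nrgn had 28.1 CPM in dividing against 5.04 in other members on day 12, and 22.3 against 2.25 on day 10, and Cd24a had 1602 CPM in dividing against 548 in other members on day 12, and 1503 against 673 on day 10. Of 14 recombination and end joining genes, Hmgb1 and Hmgb2, chromatin proteins that help the recombinase and are abundant in dividing cells, were higher and 5 were lower, including Rag2 (log2 ratios -0.95 and -1.08 on days 12 and 10) and Lig4, the end-joining ligase (-1.65 and -0.70; lost with TMM factors). Of 14 glycolysis genes Gapdh, Ldha, Pgam1 and Pgk1 were higher, and Hk1 was lower.

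Outside the lists, the largest ratios belonged to mitosis genes: Nek2, Kifc1, Cep55, Gtse1, Pbk, Pif1, Esco2, Ckap2l, Ncapg and Aspm. Nek2, a centrosome kinase, had 263 UMIs in dividing and 1 in other members on day 12. The smallest belonged to Cacna1e, Dnase1l3, Cxcr5, Tmem163, Ankrd33b, Cracdl, Smtnl2, Pde9a, Bmf and Cyp4f18. Cacna1e, a voltage-gated calcium channel subunit, had 16.2 CPM in dividing against 257 in other members on day 12, and 36.6 against 379 on day 10, and Cxcr5, the follicle-homing receptor of B cells, stood at 3.75 against 38.3 CPM on day 12 and 3.41 against 28.1 on day 10. With cells holding RNA of other lineages left out, all of these genes were called in the same direction.

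Crossing both splits gave 4 groups. On day 12 there were 142 Dntt-positive cells not dividing, 180 Dntt-positive dividing, 122 Dntt-negative dividing and 56 Dntt-negative not dividing, and on day 10 250, 234, 129 and 110. Igll1 was highest in the Dntt-positive cells that were not dividing, with 2370.1 CPM on day 12 and 2904 on day 10, against 1089 and 632 in Dntt-negative dividing cells. Rag2 stood at 104 and 172 CPM in the first of these groups and 11.8 and 22.2 in the second. These groups were made from the same counts, so the pattern is a description.

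Nrgn differed between the Dntt-negative groups. It had 57.4 CPM in Dntt-negative dividing cells on day 12 and 50.1 on day 10, and at most 11.8 in any other group. Cd24a was likewise highest there, at 2411 and 2012 CPM. Ikzf3 was high in both Dntt-negative groups: it had 185 CPM in dividing against 134 in other Dntt-negative cells on day 12, and 94.2 against 209 on day 10. The 2 libraries thus gave opposite orders for Ikzf3 within the Dntt-negative cells.

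**Figure D4:**
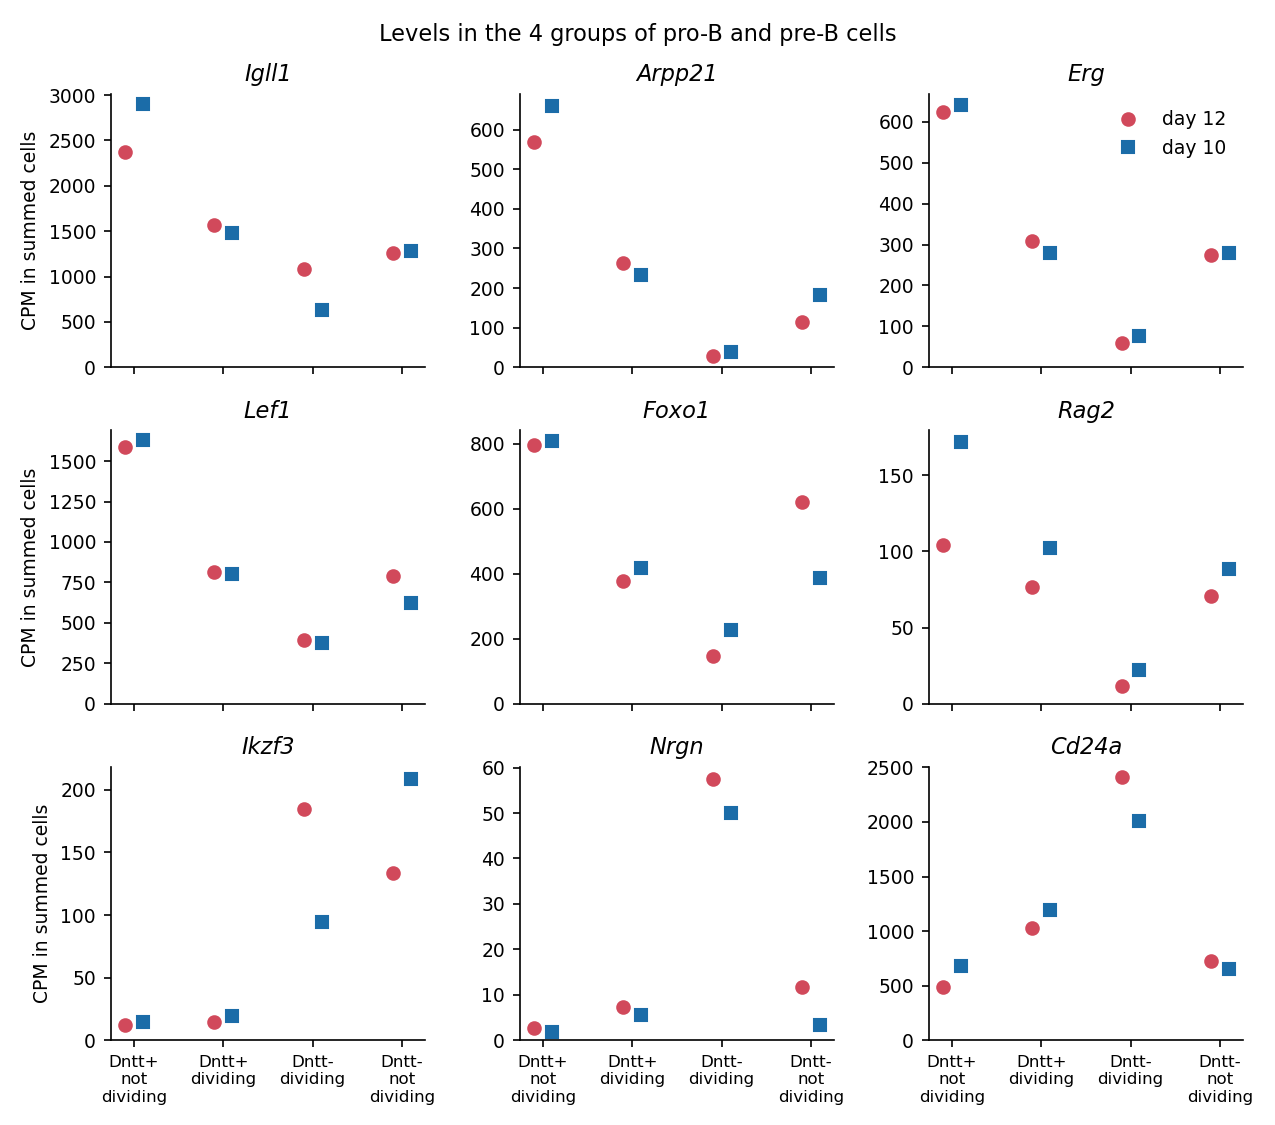
CPM of 9 genes in the summed cells of 4 groups of members, split by a Dntt UMI (Dntt+ or Dntt-) and by division, on day 12 (red circles) and day 10 (blue squares); there are no replicates and each panel starts at 0. Arpp21, Erg, Lef1 and Rag2 are lowest, and Nrgn and Cd24a highest, in Dntt-negative dividing cells in both libraries.

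Against later B cells of the same library, the members had fewer lambda light chain and class II transcripts and more of several progenitor factors. Of 11878 genes, 537 (4.52%) were higher and 971 (8.17%) lower in members. The rule genes and Ighd, Ms4a1, Fcmr, H2-Aa, Cd22, Cd79a and Cd79b chose the 2 classes and are description. Of 13 immature and mature B genes 12 were lower in members, and of 10 class II genes 9. Choosing genes, such as H2-Aa among the class II genes, were counted in. These counts were thus partly fixed by the selection and are description. Cd74, the invariant chain of class II, had 54.4 CPM in members against 1773 in later B cells on day 12, and 83.9 against 771 on day 10. The later B cells also held RNA of plasmacytoid dendritic cells. Siglech, a marker of those cells, had 22.8 CPM in later B cells on day 12 and 169 on day 10. In all kept cells outside the members it had 3.84 and 7.00. Without the cells holding RNA of other lineages, 6 of 7 plasmacytoid dendritic genes tested were lower in members. The part of this RNA in the differences from later B cells was not tested.

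Immunoglobulin genes ordered the 2 classes in the same way in both libraries. Ighm had 1239 CPM in members against 2298 in later B cells on day 12, and 1296 against 3365 on day 10. The lambda constant genes Iglc1, Iglc2 and Iglc3 had 4.56 against 431, 1.9 against 257 and 2.47 against 218 CPM in members against later B cells on day 12, while the kappa gene Igkc had no UMI in any barcode. Ighg2b ran the other way, with 70 UMIs in members and 0 in later B cells on day 12, and 149 and 0 on day 10. Vpreb2 was also at 0 in later B cells of both days, against 770 UMIs in members on day 12 and 1515 on day 10.

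Of 21 B-lineage factors, Ebf1, Erg, Lef1 and Sox4 were higher in members and Ikzf3, Irf4, Spi1 and Spib lower. Erg had 267 CPM in members against 46.1 in later B cells on day 12, and 294 against 43.5 on day 10, and Lef1 had 781 CPM in members against 103 in later B cells on day 12, and 834 against 144 on day 10. Ikzf3 had 77.4 CPM in members against 538 in later B cells on day 12, and 50.2 against 451 on day 10. Pax5 was about level, at 749 CPM in members against 742 in later B cells on day 12 and 675 against 687 on day 10. Without the cells holding RNA of other lineages, Ebf1, Irf4 and Spi1 no longer reached 1.5-fold in both libraries.

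Outside the lists, Mmrn1, Ighv14-2, Crhbp, Drc7, Gfra2, Pcp4l1, Tnfsf10, Bfsp2, Cracdl and Rgs8 had the largest ratios in members. Gfra2, a receptor for the glial factor neurturin, had 101 CPM in members against 4.66 in later B cells on day 12, and 74.6 against 5.04 on day 10. Agbl1, Ralyl, Btla, Kynu, P2ry10, St8sia6, Marchf1, Rasgrp1, Scd1 and Cnr2 had the smallest. Marchf1, a ubiquitin ligase that turns over class II molecules, had 5.14 CPM in members against 119 in later B cells on day 12, and 5.1 against 51.7 on day 10, and Cnr2, the cannabinoid receptor of B cells, stood at 2.28 against 33.5 CPM on day 12 and 2.46 against 22.1 on day 10.

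Between day 12 and day 10, Myc and 4 of 16 DNA replication genes were higher in the members on day 12, and 11 of 14 dissociation stress genes, such as Fos and Jun, were lower. Of 13877 genes, 1351 (9.74%) were higher and 2251 (16.2%) lower by 1.5-fold on day 12, with an all-gene median of 0.03. Among members not dividing 2011 genes were higher and 1162 lower, so the excess of lower genes did not hold there. None of the 5 detectable rule genes and none of 13 pre-B receptor and signalling genes passed 1.5-fold. The medians of these lists were 0.00 and -0.05; the rule genes chose the members on both days, so their levels are a description.

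Of 21 B-lineage factors, 4 were higher on day 12 and none lower. Myc, a growth factor-driven regulator of cell growth, had 117 against 55.1 CPM, and Bcl11a, which early B cells need, had 405 against 244 CPM, on day 12 against day 10. Spi1 (PU.1) had 72.3 against 46.7 and Ikzf3 77.4 against 50.2 CPM. In all other kept cells Spi1 and Myc were also higher on day 12, at 130 against 68.9 and 37.7 against 23.1 CPM. Bcl11a and Ikzf3 had 37.5 against 42.5 and 17.8 against 14.6 CPM in those cells. In the members, Ikzf3 turned direction among those not dividing and with 4 rule genes required. Myc and Bcl11a were under 1.5-fold among members not dividing, and Ikzf3 was so without RNA of other lineages.

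DNA replication genes had a median of 0.39, with Mcm2, Mcm3, Dut and Ung higher of 16 and none lower. Mcm2, a subunit of the replicative helicase, had 209 against 103 CPM on day 12 against day 10. Of 18 division genes, Ube2c alone passed, at 299 against 189 CPM, with a list median of 0.30. Later B cells had medians of the opposite sign, -0.77 for division and -0.85 for replication genes, and all other kept cells had -0.44 and -0.32. The later B cells had a median of 3234.5 UMIs on day 12 and 7621 on day 10, and held RNA of plasmacytoid dendritic cells. The difference between the classes was not tested. Within dividing members alone the replication median was 0.33, with 4 higher and none lower. Among members not dividing it was 0.00, with 3 higher and 2 lower. In those cells Mcm2 and Ube2c were under 1.5-fold, and Mcm3, Dut and Ung turned to ratios of -0.044, -0.18 and -0.12.

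Of 14 genes known to respond to tissue dissociation, 11 were lower on day 12 and none higher, with a median of -0.84. Fos and Jun, the immediate early factors, had 503 against 1068 and 189 against 449 CPM on day 12 against day 10, and Egr1 and Atf3 had 137 against 321 and 14.8 against 72.5. All other kept cells had a median of -0.21, and later B cells one of 0.45. In all other kept cells the log2 ratios of Fos, Jun, Egr1 and Atf3 were -0.58, -0.55, -0.13 and -1.02. Leaving out cells with RNA of other lineages, 9 of the 14 were lower in members, and among members not dividing 5 were lower and 2 higher. Fos was under 1.5-fold among members not dividing, at a log2 ratio of -0.33.

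Class II genes were lower in 7 and higher in 1 of 10 on day 12, with a median of -0.66 in members beside 1.13 in later B cells. H2-Aa had 41.8 against 80.2 and Cd74 54.4 against 83.9 CPM on day 12 against day 10, levels far under those of later B cells. Among members not dividing, H2-Aa, Cd74 and H2-Eb1 turned to ratios of 0.23, 0.13 and 0.55. Without the cells holding RNA of other lineages, 4 of 10 were lower and 2 higher. Of genes listed for fetal and neonatal B lymphopoiesis, Plac8 was higher on day 12 (858 against 551 CPM, but under 1.5-fold without RNA of other lineages). Hmga1 and Lin28b were lower, with Lin28b at 17 of 5257927 UMIs on day 12 and 58 of 10589437 on day 10. In all other kept cells the log2 ratios of Plac8, Hmga1 and Lin28b were 0.37, -1.02 and -0.47. Igf2bp3, an RNA-binding protein of fetal B precursors, had 314, 169, 232 and 252 CPM on days 7, 8, 10 and 12.

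The 2 libraries also differed in free or admixed RNA and in sex-linked transcripts. Erythroid genes were lower on day 12 in 10 of 10 (median -1.87), neutrophil genes in 11 of 12 (-2.80) and endothelial genes in 6 of 8 (-1.47), while 9 of 11 cartilage genes were higher (0.80). The endothelial direction turned among members not dividing, with 5 of 6 genes higher on day 12 (median 1.48), and without RNA of other lineages 1 was higher and 1 lower of 5 (-0.04). The other shifts persisted in that last setting. Erythroid genes were lower in 9 of 9 (-2.20) and neutrophil genes in 11 of 11 (-1.27), and 10 of 11 cartilage genes were higher (1.55). The members' summed erythroid level was 3360.3 CPM on day 12 and 11223 on day 10, and the neutrophil level 374 and 2158. In all other kept cells the erythroid median was -2.29 and the neutrophil median -1.11. The part of such RNA in the differences between members was not tested.

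The genes with the largest day-12 ratio outside the lists were Eif2s3y, Ddx3y, Kdm5d and Uty, all on the Y chromosome. They had 312, 411, 100 and 240 UMIs in members on day 12 against 0, 2, 0 and 3 on day 10. In all other cells of the day-10 library Ddx3y had 14 UMIs, against 12436 on day 12, so the day-10 library held next to no Y-linked RNA. On day 12 236 members had Xist but no UMI of these 4 genes and 125 the reverse, and on day 10 637 and 0. Both kinds of UMI were found in 101 of 500 members on day 12 and 5 of 723 on day 10, and neither kind in 38 and 81. Whether the members with both were doublets or held free RNA was not tested. Sex and age cannot be told apart in this comparison.

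After these came Dkk1, Ptprz1, Atp6v0d2, Adgre4, Lta and Scn1a. Lta, the lymphotoxin alpha cytokine, had 73 UMIs in members on day 12 and 23 on day 10, and Atp6v0d2, a proton pump subunit of osteoclasts, had 363 and 102. The smallest ratios belonged to Sele, Prss34, Cxcl10, Clca3a1, Ms4a2, Gkn3, Selp, Tpte, Mmp12 and Ppm1n. Sele and Selp, selectins of activated endothelium, had 0 and 15 UMIs on day 12 against 184 and 974 on day 10, and Prss34 and Ms4a2, genes of basophils and mast cells, 0 and 0 against 118 and 61. Without the cells holding RNA of other lineages Selp was no longer called, and Sele, Cxcl10, Clca3a1, Gkn3, Mmp12, Dkk1 and Scn1a had too few UMIs.

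**Figure D5:**
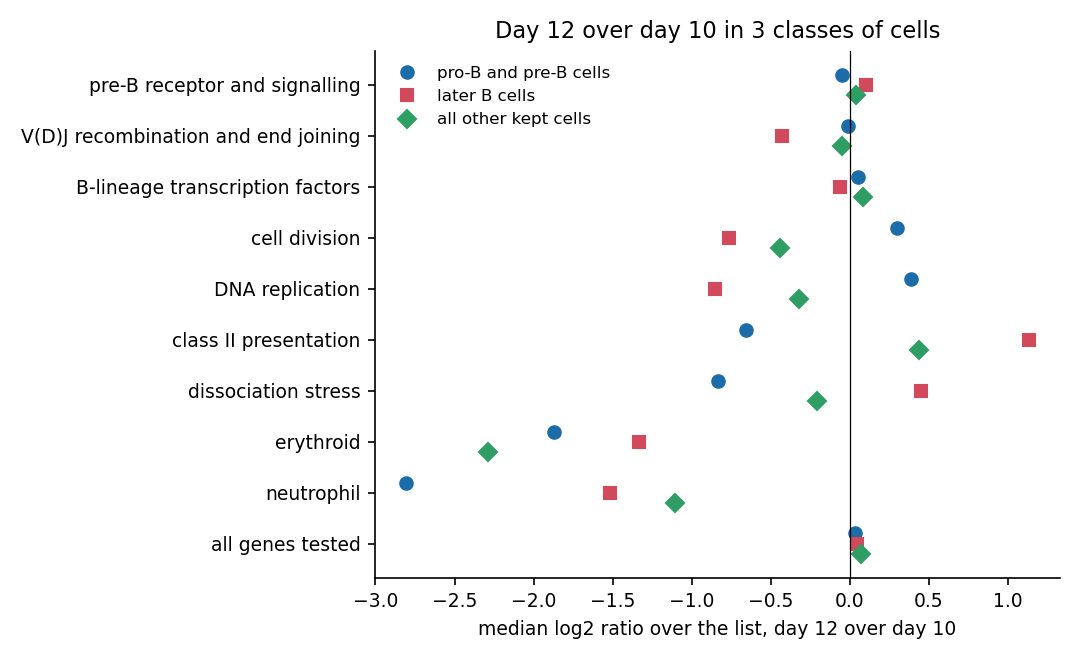
Median log2 ratio of day 12 over day 10 for 9 gene lists and all genes tested, in pro-B and pre-B cells (blue circles), later B cells (red squares) and all other kept cells (green diamonds), with 1 library per day. Division and replication medians are above 0 in pro-B and pre-B cells (0.30 and 0.39) and below 0 in the other classes.

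The 30 members of days 7 and 8 entered no ratio. On day 8 the stress gene Hspa1a, a heat shock protein, had 625 CPM from 74 UMIs (490.5 to 784), against 5 on day 10 and 4.18 on day 12, while no UMI was found in the 5 members of day 7, which allows up to 193 CPM. Cartilage genes summed to 8594.5 CPM in the members of day 7, 6179 on day 8, 1038 on day 10 and 2586 on day 12. Y-linked and Xist UMIs were both present among the members of days 7 and 8.

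Unrearranged or rearranged V gene transcripts, which were not told apart here, were found in the members of each library. Ighv genes had 1, 20, 626 and 172 UMIs on days 7, 8, 10 and 12, and the later B cells of days 10 and 12 had 11 and 8. These counts are not scaled to class size, which was 723 and 500 members and 139 and 362 later B cells on days 10 and 12. On day 12 35 of 183 Ighv features had a UMI in members, and on day 10 54. Ighv14-2 held 34.3% of the Ighv UMIs on day 12 and 37.9% on day 10, and Ighv1-23 13.4% and 14.1%. Ighv14-2 was found in 50 members on day 12 and 130 on day 10, with at most 2 and 11 UMIs in 1 cell, and 56 of its UMIs on day 12 and 221 on day 10 were in Dntt-positive cells. The same 2 features led in both libraries, and because V genes resemble one another the assignment of a UMI to 1 of them is uncertain.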

How the data were processed

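The deposited files hold raw UMI counts per gene and cell barcode, 1 matrix for each of the 4 libraries, with 55416 features. Genome build GRCm39 is named in the submitters' processing notes; no counting program, annotation or cell calling is stated there. The 4 libraries kept 11309, 11464, 10028 and 16254 cells on days 7, 8, 10 and 12. Members and gene lists were chosen with earlier results of these data known.

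Counts were summed over cells and expressed as CPM. Ratios had 1 UMI added to each sum and used genes with at least 20 UMIs over both sums (in each library for contrasts within libraries); 1.5-fold was called. CPM have exact Poisson intervals and shares Clopper-Pearson intervals, at 95%. Thinned cells were drawn without replacement to 1000 UMIs. Named genes outside the lists are the 10 largest and 10 smallest ratios with at least 50 UMIs, leaving out Gm, Rik, mitochondrial and ribosomal names. The ratio code was tested on simulated data. The limits on RNA of other lineages were chosen after seeing the data. Python 3.11.15, numpy 2.4.6, scipy 1.17.1, pandas 2.3.3 and, for TMM factors, edgeR 4.0.16 were used; no count test was run.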

Additional observations from a re-analysis of the deposited data

Results flagged for a closer look

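In 8 genes of the lists the same contrast ran in opposite directions, by at least 1.5-fold each, in the 2 libraries. With 1 library per day these differences were not tested. Class II genes differed between Dntt-positive and Dntt-negative cells: the log2 ratio of Cd74 was -1.58 on day 12 and 0.72 on day 10, that of H2-Aa -1.94 and 1.43, that of H2-DMb2 -0.67 and 0.61, and that of H2-Eb1 -2.40 and 1.54. Between dividing and other members, the stress factor Atf3 stood at -1.44 on day 12 and 0.70 on day 10, the IgM receptor Fcmr at 1.22 and -2.92, the lambda constant gene Iglc1 at 2.54 and -2.36, and the polymerase Poll at 0.77 and -0.95. Fcmr, Iglc1 and Poll rest on few UMIs. Dividing and other members held 19 and 1, 24 and 0, and 21 and 2 of them on day 12. On day 10 they held 8 and 22, 14 and 25, and 19 and 12.

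Cells with at least 3 rule genes were also found outside the hemoglobin or cartilage limits, 26 on day 12 and 50 on day 10, and were not members.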

How the results depend on the processing

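Each day is 1 library, so shares and counts could not be checked by leaving out replicates. No paired analysis was possible because no 2 libraries share a day or an animal label. The share of members depended on the rule: with 2 rule genes it was 4.22% on day 12 and 12.6% on day 10; with 4 rule genes 0.122%, 5.16% and 2.16% on days 8, 10 and 12; with the rule applied to thinned cells 0.113%, 4.09% and 1.77%; with hemoglobin under 2% 5.50% on day 10; without RNA of other lineages 2.56% on day 12 and 4.97% on day 10; and among Ptprc cells 0.709%, 1.66%, 18.5% and 5.69% on days 7, 8, 10 and 12. Day 10 exceeded day 12 in each.

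Many counts moved with the UMI minimum. With no minimum beyond 1 UMI, 4276 genes were higher and 4390 lower on day 12, 1033 and 1757 in Dntt-positive cells, and 3843 and 2967 were lower in dividing cells and in members against later B cells. With at least 100 UMIs the counts were 791 and 1028 by age, 308 and 166 by Dntt, 835 lower by division, and 317 and 559 against later B cells. With 5 UMIs added, which put the all-gene medians at -0.14 on day 12 and -0.15 on day 10, 321 were higher against later B cells. On day 12 1777 genes were higher and 1389 lower with the thinned rule, and 2011 and 1162 among members not dividing, so that higher genes outnumbered lower ones, against 1351 and 2251 as reported. The all-gene median was 0.12 among members not dividing. Genes lower in Dntt-positive cells numbered 304 without RNA of other lineages. TMM factors gave 1666 higher and 925 lower by division.

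Of the genes called between day 12 and day 10, some changed sign. Among members not dividing the log2 ratios were 0.25 for Cd34, 0.13 for Cd74, -0.18 for Dut, 0.23 for H2-Aa, 0.55 for H2-Eb1, 0.011 for Hspb1, -0.41 for Ikzf3, -0.044 for Mcm3, 0.28 for Rtp4, 0.90 for Selp and -0.12 for Ung. Cd74 stood at 0.21 with 2 rule genes, Ikzf3 at -0.032 with 4, Pmaip1 at -0.21 with the thinned rule, and Cd34 at 0.33 and Hspb1 at 0.50 without RNA of other lineages. The cause was not tested, beyond that these settings use fewer or other cells. Day 7 with 5 members and day 8 with 25 limit what can be read there.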
